A study of Mus musculus with 24 samples.

Results

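The GABA-A receptor subunit genes Gabra2, Gabra3, Gabra4, Gabra5, Gabrb1, Gabrb2 and Gabrd, were followed through mouse cortex after an ischemic stroke. They were taken by gene symbol and not by any measured value, and all 7 were listed in each of 4 deposited tables, out of 14769 genes listed in any table. All libraries are cortex RNA of male mice, 3 to 4 months old. Transient middle cerebral artery occlusion (tMCAo) had blocked the artery with a monofilament for 1 h, and blood flow had then been restored for 1 day. All animals of all groups had the surgery, and the strain entry of every sample, WT included, is C57BL/6N-Cdr1asem1Nikr, a line with an edited Cdr1as locus. WT animals are those labelled wild type, and KO animals those labelled as lacking ciRS-7, the circular RNA of that locus, also named Cdr1as. Each genotype has 6 libraries of cortex marked CL and 6 marked PI, and the titles give the same animal number to a CL and a PI library. The labels do not spell these marks out, and they are used as given. The series asks how loss of ciRS-7 bears on gene expression in the stroke model.

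GABA-A receptors are chloride channels opened by the transmitter GABA, and they carry most fast inhibition in the cortex. Each receptor is a ring of subunits around a pore. Alpha and beta subunits together form the GABA site, and the alpha subunit shapes the response to GABA and to drugs such as benzodiazepines. Many, but not all, receptors with a gamma subunit gather at synapses. Receptors with the delta subunit lie outside synapses and answer to low ambient GABA, producing a steady (tonic) current.

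Values are log2 CPM, that is, the reads of a gene per library total, on a log2 scale. Each table holds 2 groups of 6 and was scaled on its own, so tests stay within a table. For each gene and group the outer values had been replaced by the group's quartiles before deposit, so the 2 lowest of 6 libraries share a value and so do the 2 highest. The true lowest and highest library cannot be recovered, and the spread of deposited values is smaller than the spread between animals. Lowest and highest values, separation of groups, per-animal differences and ratios within a library given below describe deposited values, not each library's own values. Tests therefore compare the mean of the 4 recoverable values per group (a trimmed mean), with limma's variance moderation and Benjamini-Hochberg adjustment over all genes of the table. A gene is called at an adjusted p under 0.05. The standard error (SE) is that of the trimmed mean or of the difference, with n = 6 libraries per group.

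The step between low values gave an effective depth of 3.732 to 10.48 M reads per library. The lowest value, that of CL KO replicate 6, was read from 29 and 39 low values in its 2 tables, of which 82.8% and 84.6% lay within 0.1 of a whole read. A doubled depth would make the same values whole, with nearly all of them even, so its depth and the lowest read numbers are estimates. At this depth the deposited values amounted to 80 to 245 reads per library of Gabrd, the rarest member. Those of Gabrb2 amounted to 1347 to 3743 reads, so counting noise is larger for Gabrd. Deposited values of Cdr1as, the edited target, stood between 11.35 and 11.89 log2 CPM in WT libraries. No deposited KO value of it was above 0.166 CPM, or 1.01 reads, and the highest KO library itself may have held more. Slc17a7, Tbr1 and the other 4 listed markers of cortical excitatory neurons were present in all tables.

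Position was read from GENCODE M21 on GRCm38, the sequence of build mm10 named in the submitters' processing notes. Gabra2 (chr5:70957597-71095849, minus strand), Gabra4 (chr5:71569749-71658308, minus) and Gabrb1 (chr5:71658113-72149037, plus) form a cluster on chromosome 5. Gabra4 and Gabrb1 lie head to head and their exons share 46 bases on opposite strands, which is 0.756% of the exon bases of Gabra4 and 0.332% of those of Gabrb1. Gabra5 (chr7:57407672-57510059, minus) shares 148 exon bases, 4.98% of its exons, with the antisense gene Gm9962. Gabrb2 (chr11:42419757-42629028, plus), Gabra3 (chrX:72432681-72656848, minus) and Gabrd (chr4:155384980-155398112, minus) share no exon base with another gene. Whether reads were counted by strand is not given in the sources used here, so reads in the shared bases cannot be assigned.

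Promoters are shown for Gabra4 and Gabrb2, the members called lower in PI in both genotypes, beside Gabra2 and Gabra5, which were called in neither. The stretches come from RefSeq on GRCm38.p6, run 5′ to 3′ on the gene's own strand and hold only bases upstream of the RefSeq start that lie in no annotated exon. Capitals mark matches, on either strand, to the motifs searched, which were the core site of EGR factors (GCGNGGGCG), the half-site for cAMP response factors (TGACG), the SP1 box (GGGCGG) and the TATA box (TATAAA). The stretches are Gabra4 at chr5:71658364-71658558 (minus strand), Gabrb2 at chr11:42420190-42420439 (plus), Gabra2 at chr5:71095850-71096099 (minus) and Gabra5 at chr7:57510060-57510309 (minus).
Gabra4: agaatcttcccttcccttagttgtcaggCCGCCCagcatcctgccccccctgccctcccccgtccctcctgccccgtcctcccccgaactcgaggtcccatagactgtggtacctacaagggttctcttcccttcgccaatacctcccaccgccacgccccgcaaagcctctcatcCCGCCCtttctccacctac
Gabrb2: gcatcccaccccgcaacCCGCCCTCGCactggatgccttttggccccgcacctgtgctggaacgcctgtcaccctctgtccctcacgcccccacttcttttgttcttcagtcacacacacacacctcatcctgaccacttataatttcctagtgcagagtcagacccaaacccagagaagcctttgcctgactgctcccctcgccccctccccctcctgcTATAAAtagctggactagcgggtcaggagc
Gabra2: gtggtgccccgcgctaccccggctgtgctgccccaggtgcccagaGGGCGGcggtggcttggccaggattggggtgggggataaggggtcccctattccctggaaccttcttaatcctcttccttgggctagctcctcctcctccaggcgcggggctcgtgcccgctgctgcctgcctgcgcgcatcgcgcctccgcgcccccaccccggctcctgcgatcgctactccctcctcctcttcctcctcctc
Gabra5: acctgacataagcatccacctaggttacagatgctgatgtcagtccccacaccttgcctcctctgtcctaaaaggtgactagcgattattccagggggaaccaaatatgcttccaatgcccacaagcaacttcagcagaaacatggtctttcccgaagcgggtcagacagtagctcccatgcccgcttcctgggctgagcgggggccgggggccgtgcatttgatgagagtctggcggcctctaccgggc

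The Gabra4 stretch of 195 bases held 2 SP1 boxes, and 23.8% of 32851 RefSeq stretches of that length held at least 1. The Gabrb2 stretch of 250 bases held 1 EGR core, which overlaps its 1 SP1 box, and 1 TATA box, and the shares of stretches of that length with a match were 4.7%, 32.7% and 12.4%. Gabra2 held 1 SP1 box and Gabra5 held none of these letters. No cAMP response half-site was found in the 4 stretches, and 17.8% of stretches of 250 bases held one. The GC content was 63.6% in Gabra4, 58.8% in Gabrb2, 70.0% in Gabra2 and 56.4% in Gabra5, beside a median of 52.4% over stretches of 250 bases. A match describes the letters and not a bound site. Gabrb2 has 3 RefSeq windows, of which 1 is shown and lies inside the gene's GENCODE span.

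Per kilobase of merged exon, Gabrb2 was the most abundant member in all 4 groups and Gabrd the least. Merged exons join all annotated transcripts, 13.8 kb for Gabrb1 and 6.36 kb for Gabrb2, so the order depends on that choice of length. In CPM alone Gabrb1 stood above Gabrb2, at 380 against 366 in CL WT and 371 against 305 in PI WT. In CL WT, Gabrb2 stood at 57.5 CPM per kb, followed by Gabra3 at 44.5 and Gabra4 at 44.2. Below them came Gabra5 at 27.8, Gabrb1 at 27.4, Gabra2 at 23.1 and Gabrd at 9.17 CPM per kb. Gabra3 and Gabra4 did not differ beyond their summed SE in that group, nor did Gabra5 and Gabrb1, while each other step in the order did. In PI WT Gabrb2 stood at 48.0 and Gabrd at 5.34 CPM per kb. Gabrb1 stood above Gabra5 in PI WT, CL KO and PI KO, by less than their summed SE each time.

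**Figure D1:**
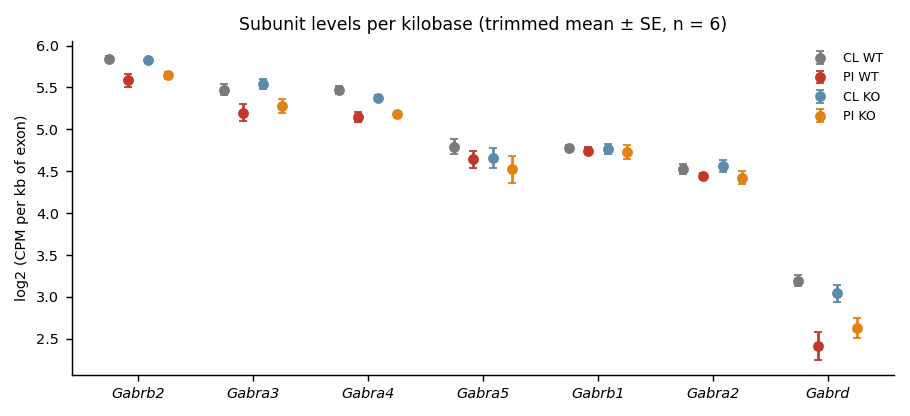
Level of each subunit per kilobase of merged exon (vertical axis, log2 of CPM per kb; points, trimmed mean; bars, SE; n = 6 libraries) in the 4 groups. Gabrb2 is highest and Gabrd lowest in every group, and the CL and PI tables of the 2 genotypes were scaled separately.

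Setting PI against CL inside each genotype shows how the subunits differed between the cortex samples taken from an animal. In WT, Gabrd, Gabra4 and Gabrb2 were lower in PI, where Gabrd decreased by 41.7%, Gabra4 decreased by 19.8% and Gabrb2 decreased by 16.6%. In KO, Gabra4 decreased by 12.8% and Gabrb2 decreased by 12.0%. Gabra2, Gabra5 and Gabrb1 were called in neither genotype, and no subunit was higher in PI. Of 14489 genes tested in WT, 5.4% were called lower and 5.2% higher in PI, beside 3 of the 7 members lower and none higher. In KO 4.94% of 14338 genes were called lower and 5.11% higher, beside 2 of the 7 lower and none higher.

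All 7 log2 differences were negative in both genotypes. Their median was -0.26 in WT, where the median over all genes was 0.01 and 47.7% of genes were negative. In KO their median was -0.19, and 50.1% of all genes were negative. With the animal as a block, 4 of 7 were called lower in each genotype, namely Gabra3, Gabra4, Gabrb2 and Gabrd. The background was then 8.08% of genes called lower in WT and 7.95% in KO. Deviations of same-animal libraries correlated weakly, at a median of 0.10 in WT and 0.10 in KO, which limits what a block adds. The same 4 genes had deposited values that did not overlap between PI and CL, all lower in PI, in both genotypes. Non-overlap with lower values in PI was found in 16.3% of all genes in WT and 17.2% in KO.

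**Figure D2:**
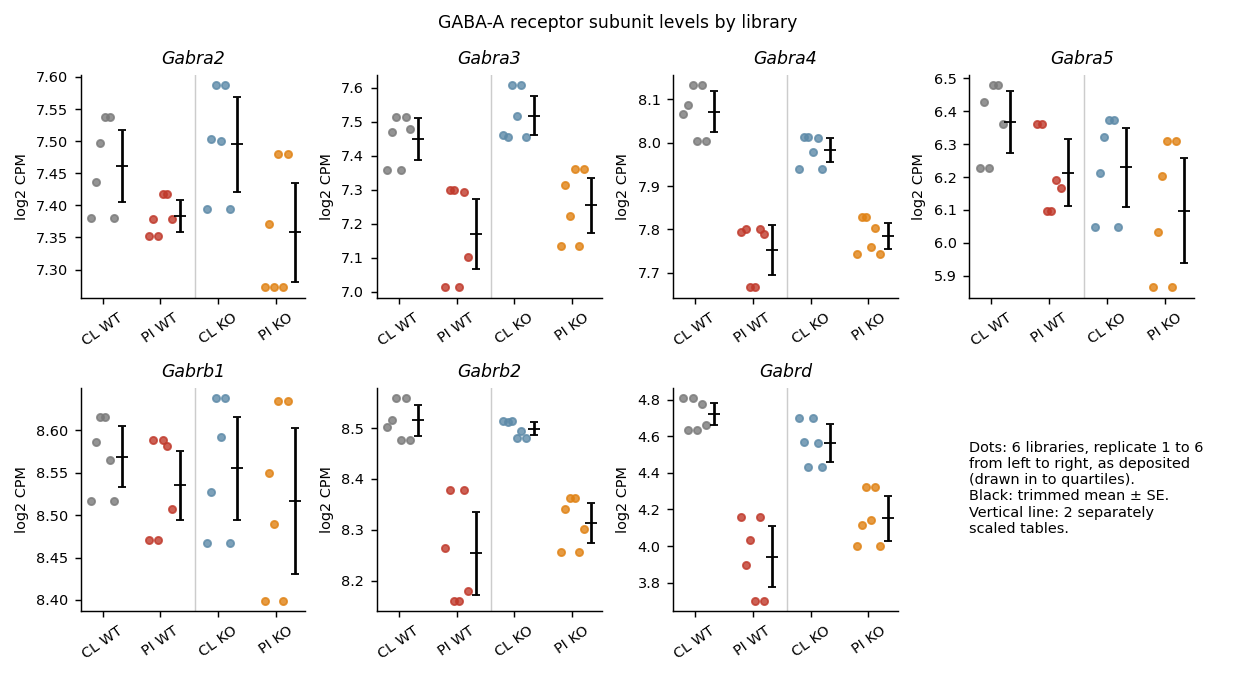
Deposited log2 CPM of each subunit (vertical axis; dots, the 6 libraries of a group in order of replicate number; black, trimmed mean ± SE). Every deposited PI value of Gabra3, Gabra4, Gabrb2 and Gabrd lies below every deposited CL value of its genotype. The groups overlap for Gabra2, Gabra5 and Gabrb1. The outer values are group quartiles, so the true extremes are not shown.

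Among the alpha subunits, Gabra4, which often partners with delta outside synapses, gave the clearest difference. In WT its lowest, median and highest values were 8.01, 8.08 and 8.13 log2 CPM in CL and 7.67, 7.79 and 7.80 in PI. All deposited PI values were below all deposited CL values, with replicates 3 and 4 the low pair in PI. The difference was -0.32 (SE 0.07, adjusted p = 0.00901). Since the deposited groups were separate, Gabra4 was necessarily lower in PI in every animal, by 0.22 to 0.47.

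In KO, Gabra4 ran from 7.94 through a median of 7.99 to 8.01 log2 CPM in CL and from 7.74 through 7.78 to 7.83 in PI. The groups again did not overlap, and the libraries of each lay close together. The difference was -0.20 (SE 0.05, adjusted p = 0.0352). The per-animal differences of the deposited values ran only from -0.22 to -0.19, a range also narrowed by the replaced outer values.

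Gabra3, an alpha subunit common in deep cortical layers and in aminergic nuclei, was lower in PI by a similar size without passing the test. In WT it stood at 7.36, 7.48 and 7.51 log2 CPM (lowest, median, highest) in CL and at 7.01, 7.20 and 7.30 in PI. The groups did not overlap, and PI replicates 1 and 4 were the low pair. The difference was -0.28 (SE 0.09, adjusted p = 0.0799), and with the animal as a block the adjusted p was 0.000838.

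In KO, Gabra3 stood at 7.45, 7.49 and 7.61 log2 CPM in CL and at 7.14, 7.27 and 7.36 in PI. No deposited PI value reached a deposited CL value. The difference was -0.26 (SE 0.08, adjusted p = 0.0643, and 0.0113 with the animal as a block). A lower deposited Gabra3 value in PI in every animal of each genotype follows from this separation and adds nothing to it.

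Gabra2 encodes an alpha subunit found at many cortical synapses, including those on the axon initial segment. In WT it ran from 7.38 through 7.47 to 7.54 log2 CPM in CL and from 7.35 through 7.38 to 7.42 in PI. The groups overlapped, and the PI values lay below or in the lower part of the CL range. The difference was -0.08 (SE 0.06, adjusted p = 0.493), with a 95% interval from -0.21 to 0.06.

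In KO, Gabra2 ran from 7.40 through 7.502 to 7.588 log2 CPM in CL and from 7.27 through 7.32 to 7.48 in PI. PI replicates 4 and 6 reached into the CL range. The difference was -0.14 (SE 0.09, adjusted p = 0.366), with an interval from -0.33 to 0.05.

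Gabra5, an alpha subunit of extrasynaptic receptors best known from hippocampus and deep cortex, was called in neither genotype. In WT it stood at 6.23, 6.39 and 6.48 log2 CPM in CL and at 6.10, 6.18 and 6.36 in PI. The ranges overlapped, and in deposited values animal 1 of WT was higher in PI by 0.14 while the other 5 were lower. The difference was -0.15 (SE 0.11, adjusted p = 0.435).

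In KO, Gabra5 stood at 6.05, 6.27 and 6.37 log2 CPM in CL and at 5.86, 6.12 and 6.31 in PI. Most of the CL range lay inside the PI range, and the per-animal differences ran from -0.51 to 0.26. The difference was -0.13 (SE 0.15, adjusted p = 0.638). Its interval in KO, -0.45 to 0.19, leaves room for a decrease as large as that of Gabra4.

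Of the beta subunits, Gabrb2 is abundant in the receptors of adult cortex. In WT, Gabrb2 ran from 8.48 through 8.51 to 8.56 log2 CPM in CL and from 8.16 through 8.22 to 8.38 in PI. The groups were separate, and PI replicates 3, 4 and 6 formed the lower part of the PI range. The difference was -0.26 (SE 0.07, adjusted p = 0.0382).

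In KO, Gabrb2 ran from 8.48 through 8.50 to 8.51 log2 CPM in CL and from 8.26 through 8.32 to 8.36 in PI. All deposited PI values were lower, with replicates 1 and 5 the low pair. The difference was -0.19 (SE 0.05, adjusted p = 0.0427). With both genotypes separate in this way, a lower deposited Gabrb2 value in PI in every animal follows and adds nothing.

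Gabrb1, the beta subunit gene next to Gabra4, showed the smallest difference of the members. In WT it stood at 8.52, 8.58 and 8.62 log2 CPM in CL and at 8.47, 8.54 and 8.59 in PI. The ranges overlapped over most of their length. The difference was -0.03 (SE 0.06, adjusted p = 0.781), with an interval from -0.16 to 0.09.

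In KO, Gabrb1 stood at 8.47, 8.56 and 8.64 log2 CPM in CL and at 8.40, 8.52 and 8.63 in PI. The CL range lay almost wholly within the PI range. The difference was -0.04 (SE 0.09, adjusted p = 0.833), with an interval from -0.22 to 0.15. A decrease of Gabrb1 as large as that of Gabra4 in WT, -0.32, lies outside both intervals. A decrease as large as that of Gabra4 in KO, -0.20, lies inside the interval of Gabrb1 in KO.

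The neighbours Gabra4 and Gabrb1 were also compared within each library, as a description of a pair chosen after its values had been seen. In WT the log2 ratio of Gabra4 to Gabrb1 had a median of -0.49 in CL and of -0.78 in PI, and it was lower in PI in 6 of 6 animals. The CL values ran from -0.61 to -0.43 and the PI values from -0.92 to -0.68, so the groups were separate. That separation alone fixes the count of animals in WT. In KO the median was -0.57 in CL and -0.69 in PI, lower in 5 of 6 animals, and the ranges overlapped. Both terms are deposited values, and in some libraries a term is the group's quartile and not that library's own value. Scaling cancels from a ratio of a library's own values but not fully from these ratios. They show unequal change only, and the separation and the counts of animals hold for deposited values.

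Gabrd, the delta subunit of tonic receptors, had the largest difference of the members. In WT it stood at 4.63, 4.72 and 4.81 log2 CPM (lowest, median, highest) in CL and at 3.70, 3.97 and 4.16 in PI. The highest PI value was 0.48 below the lowest CL value, and PI replicates 4 and 6 were the low pair. The difference was -0.78 (SE 0.14, adjusted p = 0.00369), from 26.4 CPM in CL to 15.4 CPM in PI. The per-animal differences of the deposited values ran from -0.96 to -0.62.

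In KO, Gabrd stood at 4.43, 4.57 and 4.70 log2 CPM in CL and at 4.00, 4.13 and 4.32 in PI. The groups did not overlap, but the gap between them was 0.11. The difference was -0.41 (SE 0.13, adjusted p = 0.0696), and with the animal as a block the adjusted p was 0.0152. As the deposited groups were separate, Gabrd was necessarily lower in PI in every animal, by 0.11 to 0.70.

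**Figure D3:**
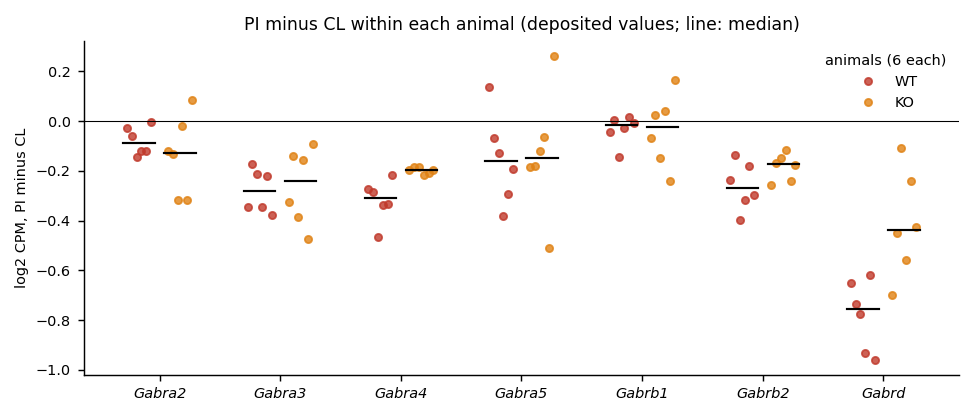
Difference between the PI and the CL library of each animal (vertical axis, deposited log2 CPM, PI minus CL; dots, 6 WT and 6 KO animals; line, median). Gabrd in WT lies lowest, from -0.96 to -0.62, and Gabrb1 scatters around 0 in both genotypes.

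The calls depended on how the prior variance was set. Without a trend of that variance with expression, Gabrd alone was called in WT (adjusted p = 0.0275) and none of the 7 in KO, where adjusted p ran from 0.11 for Gabra4 to 0.869 for Gabrb1, although 4 of 7 had an unadjusted p under 0.05. The limma fit to deposited values, whose spread is understated, called 5 of 7 in each genotype.

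Markers of neurons moved with these differences. All 10 listed neuron markers, among them Snap25 and Syt1 of the synaptic release machinery and the neurofilament gene Nefl, had negative differences in both genotypes. The medians were -0.24 in WT and -0.21 in KO, with 4 and 3 of 10 called lower. Their summed level was 7410 to 8110 CPM in PI WT and 8680 to 9200 in CL WT, and 7210 to 7900 in PI KO and 8490 to 8900 in CL KO. In bulk samples fewer cells of a type and less RNA per cell cannot be told apart.

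An alternative chosen after the data had been seen set each library to the mean of those 10 markers. It moved the median of all genes to 0.23 in WT and 0.19 in KO. On that scale Gabrd was still lower in PI WT, by -0.57 (SE 0.13, adjusted p = 0.0058), where 1.5% of genes were called lower. The differences of Gabra3 (-0.06), Gabra4 (-0.10) and Gabrb2 (-0.04) in WT were not called (adjusted p = 0.266 to 0.657). Gabrb1 was higher on that scale in PI WT, by 0.19 (SE 0.07, adjusted p = 0.0411), where 32.0% of all genes were called higher.

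In KO none of the 7 was called on the neuron marker scale, where 1.36% of genes were called lower and 24.3% higher. Gabrd stood at -0.23 (SE 0.13, adjusted p = 0.21), and the others lay between -0.08 and 0.15. The unadjusted p was over 0.05 for all 7. The direction of Gabra2, Gabra5 and Gabrb1 thus flipped with the scaling in both genotypes, and that of Gabrb2 in KO.

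**Figure D4:**
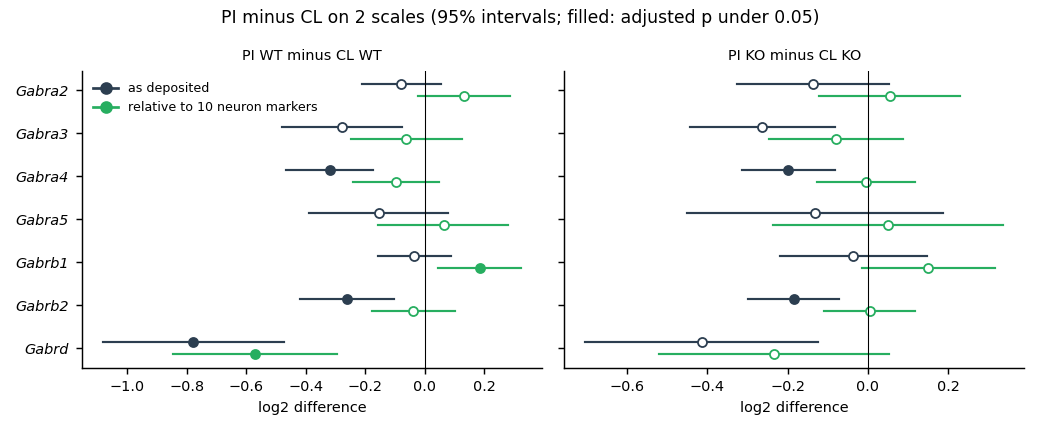
PI minus CL differences of the subunits (horizontal axis, log2; bars, 95% intervals; n = 6 libraries per group) as deposited and relative to 10 neuron markers; filled points have an adjusted p under 0.05. Gabrd in WT is lower on both scales, at -0.78 and -0.57, whereas Gabra4 and Gabrb2 are called only on the deposited scale, and Gabra2, Gabra5 and Gabrb1 in both genotypes, and Gabrb2 in KO, change sign.

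Other cell classes also differed between PI and CL. Of 6 excitatory neuron markers, Camk2a and Rorb were lower in PI WT, and Camk2a and Tbr1 in PI KO. Their summed level was 1530 to 1630 CPM in PI WT and 1880 to 2050 in CL WT, and 1460 to 1560 in PI KO and 1940 to 2070 in CL KO. Of 8 interneuron markers, Vip was lower in PI WT (-0.47, SE 0.14, adjusted p = 0.0475) and Npy higher in PI KO (0.33, SE 0.07, adjusted p = 0.0139). Their sums overlapped, at 236 to 272 CPM in PI WT and 267 to 291 in CL WT, and at 257 to 282 in PI KO and 267 to 283 in CL KO.

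Gfap, which rises in reactive astrocytes, was higher in PI by 1.88 in WT and 2.19 in KO. Of 6 astrocyte markers, 2 were called higher and 2 lower in PI WT, and 2 higher and 1 lower in PI KO. The 6 together summed to 6450 to 6880 CPM in PI WT and 7280 to 7680 in CL WT. Their mean log2 CPM went the other way, at 8.02 to 8.12 in PI WT and 7.72 to 7.81 in CL WT. Of 6 oligodendrocyte markers, Cnp was lower in PI WT and none was called in KO, where 1 of 6 had an unadjusted p under 0.05. Of 6 microglia markers, 2 were higher and 1 lower in PI WT, and 3 were higher and 1 lower in PI KO. C1qa rose by 0.69 in WT and 0.79 in KO, while P2ry12, a marker of resting microglia, stood at -0.82 and -0.76, both called. No endothelial marker of 6 was called, with 2 at an unadjusted p under 0.05 in each genotype. The leukocyte gene Ptprc rose by 1.00 in WT and 1.06 in KO, the only 1 of 6 leukocyte markers listed. Ppp1r1b, a striatal marker, was higher in PI WT (1 of 4 listed called). Enpp2, from the choroid plexus list, was lower in both genotypes, with only 2 of its 5 markers listed and 1 called. The part of these markers in the subunit differences was not tested beyond the neuron marker scale.

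Of the further subunit genes of the family, 2 gamma subunit genes are described, from a list chosen with results of these data known. Gabrg1 stood at -0.32 (SE 0.12, adjusted p = 0.113) in WT and at -0.22 (SE 0.11, adjusted p = 0.22) in KO. Gabrg3 stood at -0.12 (SE 0.06, adjusted p = 0.22) in WT and at -0.21 (SE 0.10, adjusted p = 0.2) in KO. Neither was called in PI against CL.

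Of 23 genes for anchoring and trafficking of GABA-A receptors, 4 were called lower in WT and 3 in KO, and 1 was called higher in KO. Slitrk3, an adhesion protein of inhibitory synapses, differed by -0.39 (SE 0.06, adjusted p = 0.00182) in WT and by -0.41 (SE 0.06, adjusted p = 0.000872) in KO. Shisa7, an auxiliary subunit, was lower in both genotypes, by -0.32 and -0.38.

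Plcl1, which binds GABARAP and beta subunits, was lower in WT (-0.27, SE 0.07, adjusted p = 0.0323), and Ubqln1, which stabilises receptor subunits, was higher in KO (0.24, SE 0.07, adjusted p = 0.0416). Hap1, a transport adaptor, held the largest change in KO without a call (-0.47, SE 0.16, adjusted p = 0.0911). Gphn, which encodes gephyrin, stood at -0.16 in WT (adjusted p = 0.135) and at 0.001 in KO (adjusted p = 0.997). The median over the 23 genes was -0.06 in both genotypes. With the animal as a block, 4 of the 23 were called lower in WT and 8 in KO. Over all genes 8.08% and 7.95% were then called lower. The block called 0 of the 23 higher in WT and 1 in KO.

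Genes that make, move or break down GABA differed in both directions. Abat, which breaks GABA down, was lower in WT (-0.23, SE 0.06, adjusted p = 0.0239), and Slc6a11, a glial transporter, in KO (-0.27, SE 0.07, adjusted p = 0.0353). Gad2, a GABA-synthesising enzyme, was higher in PI KO by 0.38 (SE 0.07, adjusted p = 0.00652). In WT Gad2 stood at 0.28 (SE 0.09, adjusted p = 0.06). Slc6a13 held the largest change of the list in WT, -0.36 (SE 0.21, adjusted p = 0.337), without a call.

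Of 5 genes of the GABA-B receptor, the metabotropic receptor, only its auxiliary subunit gene Kctd8 was called, lower in PI by -0.76 (SE 0.21, adjusted p = 0.0346) in WT and by -0.66 (SE 0.18, adjusted p = 0.0379) in KO. Chloride transporters set the gradient that GABA-A receptors use. Slc12a5, the neuronal chloride extruder KCC2, was lower in PI KO by -0.32 (SE 0.07, adjusted p = 0.0128). In WT none of the 6 chloride genes was called by the trimmed-mean test, where 2 had an unadjusted p under 0.05 and 2 were called with the animal as a block. The largest change there was that of Slc12a2, the chloride importer NKCC1, at -0.20 (SE 0.07, adjusted p = 0.111).

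The comparison of KO with WT within a side asks whether the subunits depended on genotype. None of the 7 was called between PI KO and PI WT, where 0.0208% of 14452 genes were called, or between CL KO and CL WT, where 0.0279% of 14323 were. By the trimmed-mean test 0 of 7 had an unadjusted p under 0.05 in both comparisons, and the limma fit to deposited values called 0 of 7 as well. The deposited values of all 7 overlapped between genotypes on both sides. Over all genes, non-overlap was found in 7.19% (lower in KO) and 6.94% (higher) in PI, and in 6.77% and 6.7% in CL. These comparisons share libraries with those of PI and CL.

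In PI the differences ran from -0.11 for Gabra5 to 0.22 for Gabrd, with a median of 0.04. That of Gabrd was 0.22 (SE 0.17, adjusted p = 0.889), with an interval from -0.14 to 0.58, so differences within these bounds could not be told from none at this spread. The intervals of Gabra2 (-0.18 to 0.14), Gabra4 (-0.10 to 0.18) and Gabrb1 (-0.19 to 0.17) were narrower. In CL the differences ran from -0.15 for Gabrd to 0.08 for Gabra3, with a median of -0.01. Gabrb2 was bounded most closely there, from -0.11 to 0.09. Of the 54 further genes in the 5 other pathway lists, those listed gave no call between genotypes on either side.

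**Figure D5:**
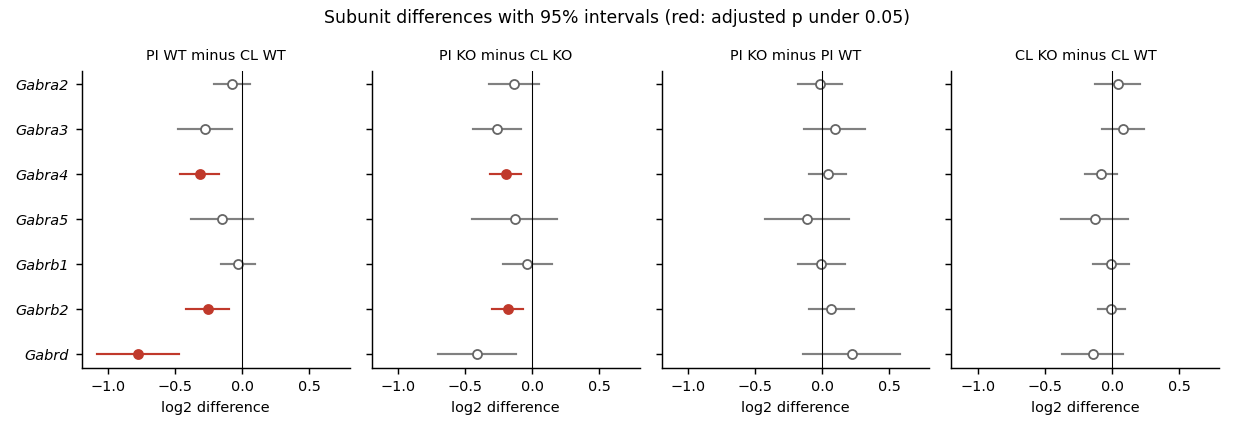
Log2 differences of the 7 subunits (horizontal axis; points, difference of trimmed means; bars, 95% intervals; n = 6 libraries per group) in the 4 comparisons of groups, with an adjusted p under 0.05 in red. Calls appear between PI and CL only, for Gabra4, Gabrb2 and Gabrd in WT and for Gabra4 and Gabrb2 in KO.

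An interaction test over 14211 genes compared the PI minus CL difference of KO with that of WT. By the trimmed-mean test 0.0% of genes were called, while 646 genes had an unadjusted p under 0.05. Among the 7 members none had an unadjusted p under 0.05. Gabrd was nearest, with a difference of 0.36 (SE 0.21, adjusted p = 0.992) and an interval from -0.07 to 0.80. With the animal as a block, Gabrd alone of the 7 had an unadjusted p under 0.05, with an interval from 0.002 to 0.725 and an adjusted p of 0.871. The call of Gabrd in WT and its absence in KO are therefore not shown to differ after adjustment over all genes. The limma fit to deposited values called 1940 genes and Gabrd among them (adjusted p = 0.0302), on a spread that is understated. For Gabra4 the interaction was 0.12 (SE 0.09, adjusted p = 0.992), and for the other 5 members it lay between -0.06 and 0.08.

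Genes whose levels followed each member most closely were ranked by the root mean square difference over 24 libraries, after centring each gene within each table, among 9795 genes. Gabrb2 was close to Ahcyl1 (0.04), and Gabra4 to Rgs7bp and Oxr1 (both 0.04). Gabra3 was nearest to Dpp10 and Cdk14 (0.06 and 0.07). Gabra2 was nearest to Vps13a and Cep290 (both 0.05), and Gabrb1 to Rab2b (0.05). For Gabra5 they were Tmeff2 and Trmt9b (0.09 and 0.10). For Gabrd they were Rassf3 and Lrrc55 (both 0.10), which fell in PI by 0.87 and 0.70 in WT and by 0.48 and 0.50 in KO. Among the members Gabra4 and Gabrb2 were each other's nearest (0.05), as were Gabra2 and Gabrb1 (0.05), and Gabrd stood farthest from any other (0.22). The libraries share their table's scaling and depth, and these distances are descriptions.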

How the data were processed

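Ribosome-depleted total RNA of 24 cortex libraries was made with the CORALL kit, per the labels' protocols. The authors deposited log2 CPM in 4 tables of 12 columns, per the file headers. The genome build was mm10, per the submitters' processing notes. The aligner, counting method, strand setting, filters and scaling are not given in the sources used here. Drawing in to quartiles was found from the values (ties equal to 0.75 times the second value plus 0.25 times the next), and the 4 inner values per gene and group were recovered from it. The test used these values, the Winsorized sum of squares, 6 degrees of freedom (12 for the interaction) and limma 3.58.1 in R 4.3.3 for variance moderation with a trend, two-sided, and was tested on simulated data. Python 3.11.15 was used for the rest.

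The members, the gene lists and the test were chosen with earlier results of these data known. Besides the members, genes of the 6 pathway lists were named where called or where they held the largest change of a list, and so were the 2 genes most like each member with a mean log2 CPM of at least 3. Markers came from 10 lists. Same numbers mark the same animal for PI and CL, and the deviations of such pairs correlated at -0.01 to 0.24 in WT and 0.01 to 0.20 in KO, so the animal was also fitted as a block. KO and WT share numbers only. Alternatives were another prior variance, other scalings, log2(CPM + 1), a filter at log2 CPM 1, group medians, the block and limma on the deposited values. Promoters (250 bases before to 50 after a start) matched 6 of 7 members in RefSeq, GRCm38.p6. Some genes that these rules would name are not reported here.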

Additional observations from a re-analysis of the deposited data

How the results depend on the processing

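Of 245 alternative values of the members that have a test, 215 kept both sign and side of the threshold and 13 changed sign. A call was gained in 11 and lost in 8, among them Gabrb1 in WT (gained) and Gabrb2 in KO (lost), which also changed sign. Without the trend in the prior variance, the genes called between PI and CL numbered 1015 in WT and 739 in KO, against 1537 and 1440, and the members called 1 and 0. The limma fit to deposited values, whose spread is understated, called 6459 genes in WT, 6666 in KO, 2388 between genotypes in PI, 2311 in CL and 1940 in the interaction, with 5, 5, 0, 0 and 1 of the 7 members. With the animal as a block, 4 members were called in KO, and the genes called numbered 2275 (WT) and 2154 (KO). Genotypes share only a number, and a block on it gave 6 genes in PI (3 without it), 85 in CL (4 without it) and 1 in the interaction (0 without it), with no member among the calls.

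Centring on the neuron markers, chosen after the data had been seen, called 4858 genes in WT and 3678 in KO, and 0 members in KO. It changed the sign of Gabra2 (0.133), Gabra5 (0.064) and Gabrb1 (0.186) in WT, and of Gabra2 (0.054), Gabra5 (0.05), Gabrb1 (0.15) and Gabrb2 (0.004) in KO. It also did so between genotypes in CL for Gabrb1 (0.0) and Gabrb2 (0.007), and in the interaction for Gabra3 (-0.019) and Gabra5 (-0.013). Centring on the median gene gave Gabrb1 0.001 both between genotypes in PI and in the interaction. It moved the calls from 783 lower and 754 higher to 1036 and 631 in WT, and from 708 and 732 to 944 and 593 in KO. The cause of these shifts was not tested. Leaving out single libraries was not run, since groups hold 6. Group medians give no test, and 2 of 35 changed sign, Gabra4 between genotypes in PI (-0.003) and Gabrb2 in CL (0.002). The replaced outer values, the 6 libraries per group and the few reads of Gabrd limit precision.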
